A study of Mus musculus with 12 samples.

Results

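Long intergenic non-coding RNA (lincRNA) loci of the mouse genome were followed through 4 lipopolysaccharide (LPS) states of primary macrophages on a 1-colour expression array. A locus was a region that the array design names by its mm9 coordinates and strand (F for forward, R for reverse) in place of a gene, and all 16181 non-control probes named in this way were taken. They covered 4607 loci (2318 forward and 2289 reverse) in 3540 regions, and 1067 regions carried probes for both strands. A locus had a median of 3 probes and at most 10. A probe was kept where its signal was well above background on all 3 arrays of a group, and the brightest kept probe stood for its locus, which left 2752 of the 4607 loci for testing (59.7%). The other 1855 loci had no such probe and have no value here. The tested loci were part of 20469 tested features, of which 13123 were protein-coding genes.

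The arrays came from bone marrow-derived macrophages of female C57BL/6 mice aged 6 to 8 weeks, matured for 7 days in medium conditioned by L929 cells, a fibroblast line that secretes macrophage colony-stimulating factor. Each of 4 groups had 3 arrays, 1 from each of 3 independent experiments, 12 arrays in all. Untreated cells had no LPS, and acute cells had LPS for 4 h. Tolerant cells had LPS for 8 h, then a rest of 16 h and a second dose lasting 4 h. Recovered cells got both doses for the same lengths of time but rested for 88 h between them (another label of these samples puts the rest at 2 to 4 days). All groups shared the strain, the maturation and, apart from untreated cells, the last 4 h of LPS. There was no group of cells rested after LPS without a second dose and no untreated group kept for the longer times, so in tolerant and recovered cells the effects of either dose and of culture time cannot be told apart. The comparisons ask which loci differ from untreated cells after 1 dose, and after 2 doses with a short or a long rest between them. They also ask how the LPS groups differ from each other.

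LincRNAs are transcripts without a long open reading frame, made from loci that lie between protein-coding genes and often spliced and polyadenylated like mRNAs. Some act at the locus they come from and some bind proteins elsewhere, and many are made in step with a nearby coding gene or enhancer. In macrophages LPS is sensed by Toll-like receptor 4, which drives NF-kappaB and interferon regulatory factors. A second dose soon after the first gives a smaller induction of many inflammatory genes, a state called endotoxin tolerance.

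Probes of some of the loci named below are shown first, as the array design gives them. They are a selection, and not all of the largest rises are among them. Each value below is the hybridization to such a 60-base stretch. Coordinates are those of mm9, and capitals mark ATTTA, the core of the AU-rich element known from short-lived mRNAs. The first set are loci that were higher in all 3 LPS groups.
chr17:64063362-64066067_R, probe chr17:64063469-64063528, minus strand: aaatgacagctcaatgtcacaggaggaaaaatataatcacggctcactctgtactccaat
chr16:84708695-84708806_F, probe chr16:84708738-84708797, plus strand: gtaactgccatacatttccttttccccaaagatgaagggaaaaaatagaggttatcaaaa
chr16:84702353-84710928_R, probe chr16:84706015-84706074, minus strand: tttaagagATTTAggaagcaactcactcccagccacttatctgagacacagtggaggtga
chr10:69669025-69686275_R, probe chr10:69682206-69682265, minus strand: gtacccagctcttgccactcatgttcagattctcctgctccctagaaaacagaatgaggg
chr6:57560819-57569928_F, probe chr6:57569730-57569789, plus strand: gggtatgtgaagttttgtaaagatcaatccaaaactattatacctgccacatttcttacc
chr1:152001112-152012796_R, probe chr1:152007786-152007845, minus strand: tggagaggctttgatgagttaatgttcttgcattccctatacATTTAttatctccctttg
The second set holds loci that fell, that differed between the LPS groups, or that lie across from each other on both strands of 1 region.
chr16:4867322-4874772_F, probe chr16:4869068-4869127, plus strand: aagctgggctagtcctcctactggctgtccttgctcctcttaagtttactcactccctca
chr16:4871449-4874336_R, probe chr16:4871510-4871569, minus strand: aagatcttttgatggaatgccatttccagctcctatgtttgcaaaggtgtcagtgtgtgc
chr11:53596919-53672731_R, probe chr11:53596920-53596979, minus strand: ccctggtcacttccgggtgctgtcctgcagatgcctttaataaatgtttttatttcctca
chr7:16633756-16634410_F, probe chr7:16634202-16634261, plus strand: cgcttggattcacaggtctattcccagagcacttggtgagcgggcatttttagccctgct
chr13:62703974-62725544_R, probe chr13:62704472-62704531, minus strand: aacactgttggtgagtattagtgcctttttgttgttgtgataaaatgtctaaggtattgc
chr4:10407110-10724958_R, probe chr4:10435183-10435242, minus strand: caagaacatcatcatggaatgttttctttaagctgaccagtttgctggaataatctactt
chr6:136440100-136450050_F, probe chr6:136443255-136443314, plus strand: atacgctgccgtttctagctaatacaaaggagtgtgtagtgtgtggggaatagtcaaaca
ATTTA was read on the probe strand in 1128 of the 16181 locus probes (6.97%) and on the other strand in 1221 (7.55%). Among the brightest probes of the tested loci it stood in 142 of 2752 (5.16%; 6.87% on the other strand). It stood in 23 of the 325 brightest probes of loci called higher in acute cells (7.08%; 7.69% on the other strand) and in 14 of the 157 of loci called lower (8.92%; 5.1% on the other strand). A match is only a match of letters within the probe.

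Locus probes were well above background on 28.8% to 40.8% of spots per array, other probes on 55.0% to 60.4%. Arrays of a group correlated at 0.980 to 0.994 over the tested features. Of 9 macrophage markers on the array 9 were tested, with a summed log2 level of 19.16 to 19.25 in untreated and 19.29 to 19.83 in LPS-treated cells. The platelet marker Pf4, which macrophages also make, had a log2 level of 12.58 to 13.71 in untreated and 15.11 to 15.64 in recovered cells (the other 4 erythroid and platelet markers were not above background). The summed dendritic markers Ccr7 and Zbtb46, 2 of 4 listed, went from 4.91 to 5.89 in untreated cells to 9.25 to 11.0 in the LPS groups. The summed stromal markers Dcn and Pdgfrb went from 4.7 to 5.3 to 7.03 to 8.99, while Col1a1, Col3a1 and Postn were not above background. Of the neutrophil markers 2 of 5 were tested, with levels of 11.73 to 12.66 that overlapped between untreated and LPS groups. Of the lymphocyte markers 2 of 6 were tested, at 11.39 to 11.92 in untreated and 10.68 to 11.3 in LPS-treated cells, and the 4 mast cell markers were not above background. The part of these cells in the results was not tested.

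Of the 2752 loci, 2125 were above background on all 3 arrays of every group. Another 208 were so in 3 groups, 190 in 2 groups and 229 in 1 group. By group, 2533 loci were measured in this way in untreated, 2434 in acute, 2272 in tolerant and 2494 in recovered cells. Untreated cells alone held 115 of them, recovered cells alone 74, acute cells alone 34 and tolerant cells alone 6. The same counts were not made for other features. Detection of other probes also differed, at 57.03% to 60.35% on untreated, 55.35% to 60.3% on acute, 54.96% to 56.8% on tolerant and 56.7% to 57.21% on recovered arrays. A locus found in 1 group alone is therefore not read as particular to that state. All values below are log2 signals after scaling each array to a common 75th percentile, given in the order of experiments 1, 2 and 3. A locus is said to rise, fall or be called where the limma fit over all 20469 features gave an adjusted p under 0.05. Distances to a gene run from the midpoint of the locus probe to that of the nearest probe of the gene, not to the end of the gene.

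The 5 largest rises in acute cells were those of a locus on chromosome 17, 3 loci on chromosome 16 and a locus by Herc6 on chromosome 6, and all 5 were also called higher in tolerant and recovered cells. The locus on chromosome 17, chr17:64063362-64066067_R, read 1.67, 1.92 and 2.13 on the untreated arrays, none of them well above background. Acute arrays read 10.45, 11.62 and 11.1, tolerant arrays 9.61, 9.89 and 9.65, and recovered arrays 10.71, 11.44 and 10.6. No LPS array came near an untreated one, and the tolerant arrays lay below all acute and recovered ones. Where a group is not above background only a bound can be given, the mean of the brighter group over the dimmest signal still called well above background on the dim arrays, or the dim signal itself if that is higher. On that bound the locus rose at least 146-fold in acute (adjusted p = 4.04e-09), at least 57.8-fold in tolerant (3.12e-08) and at least 133-fold in recovered cells (3.88e-09). Its nearest coding gene was Fer, a tyrosine kinase, 425 kb away on the other strand. Fer changed by -0.32 ± 0.33 in acute cells (log2, ± SE, adjusted p = 0.564), which did not pass the test.

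Loci on both strands of 1 stretch of chromosome 16 rose together. Locus chr16:84708695-84708806_F read 2.99, 4.75 and 3.29 untreated, where 1 of 3 arrays was above background, and 11.93, 12.48 and 12.82 in acute cells. It read 11.3, 11.03 and 11.14 in tolerant and 12.11, 12.05 and 12.28 in recovered cells. The log2 changes from untreated cells were 8.73 ± 0.38, 7.48 ± 0.38 and 8.47 ± 0.38 (adjusted p = 3.42e-08, 2.72e-07 and 3.87e-08), with no overlap between untreated and LPS arrays. These values rest on dim untreated signal. Its neighbour on the same strand, chr16:84707202-84707748_F, was not above background in untreated cells and rose at least 56.8-fold, 25-fold and 51.9-fold in acute, tolerant and recovered cells. The reverse-strand locus that spans both, chr16:84702353-84710928_R, read 5.04, 5.66 and 6.15 untreated and 10.88, 11.33 and 11.76 in acute cells, a change of 5.70 ± 0.30. The nearest coding gene to all 3 was Mrpl39, a protein of the mitochondrial ribosome, 9.24 to 12 kb away. Mrpl39 changed by 0.53 ± 0.21 in acute cells (adjusted p = 0.0861, and 0.00471 with the replicate number as a block), a small change beside those of the loci. RefSeq's mouse gene table lists Mir155hg and Mir155, the host gene and the microRNA known for their induction by LPS, next to Mrpl39. That table is on another build, so its coordinates were not set against these loci. Elsewhere on chromosome 16, locus chr16:45016828-45069177_F read 2.39, 3.04 and 2.91 in untreated cells, none above background, and 7.62, 9.08 and 8.85 in acute cells. Its tolerant arrays read 6.8, 7.45 and 7.57 and its recovered arrays 8.1, 9.05 and 8.16, so that tolerant arrays lay below all acute and recovered ones. It rose at least 25.2-fold, 10.6-fold and 23.8-fold (adjusted p = 9.33e-07, 1.56e-05 and 1.01e-06), and its nearest coding gene, Ccdc80 at 66.3 kb, was not tested.

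A locus on chromosome 10, named for its small p, rose from a signal that was already well above background. Locus chr10:69669025-69686275_R read 9.82, 9.73 and 9.31 in untreated cells and 15.06, 15.51 and 14.88 in acute cells. Tolerant arrays read 13.09, 13.17 and 12.52, and recovered arrays 15.54, 15.15 and 15.04. The tolerant arrays lay apart from both sides, above all untreated and below all acute and recovered arrays. The changes from untreated cells were 5.53, 3.30 and 5.62 (SE 0.24; adjusted p = 3.14e-08, 3.49e-06 and 2.41e-08). The coding gene 113 bp away on the other strand, Mrln, encodes myoregulin, a micropeptide known from muscle. It was above background on 1 of 3 acute arrays and changed by -0.96 ± 0.39 (adjusted p = 0.0915, and 0.0338 with the replicate block).

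**Figure D1:**
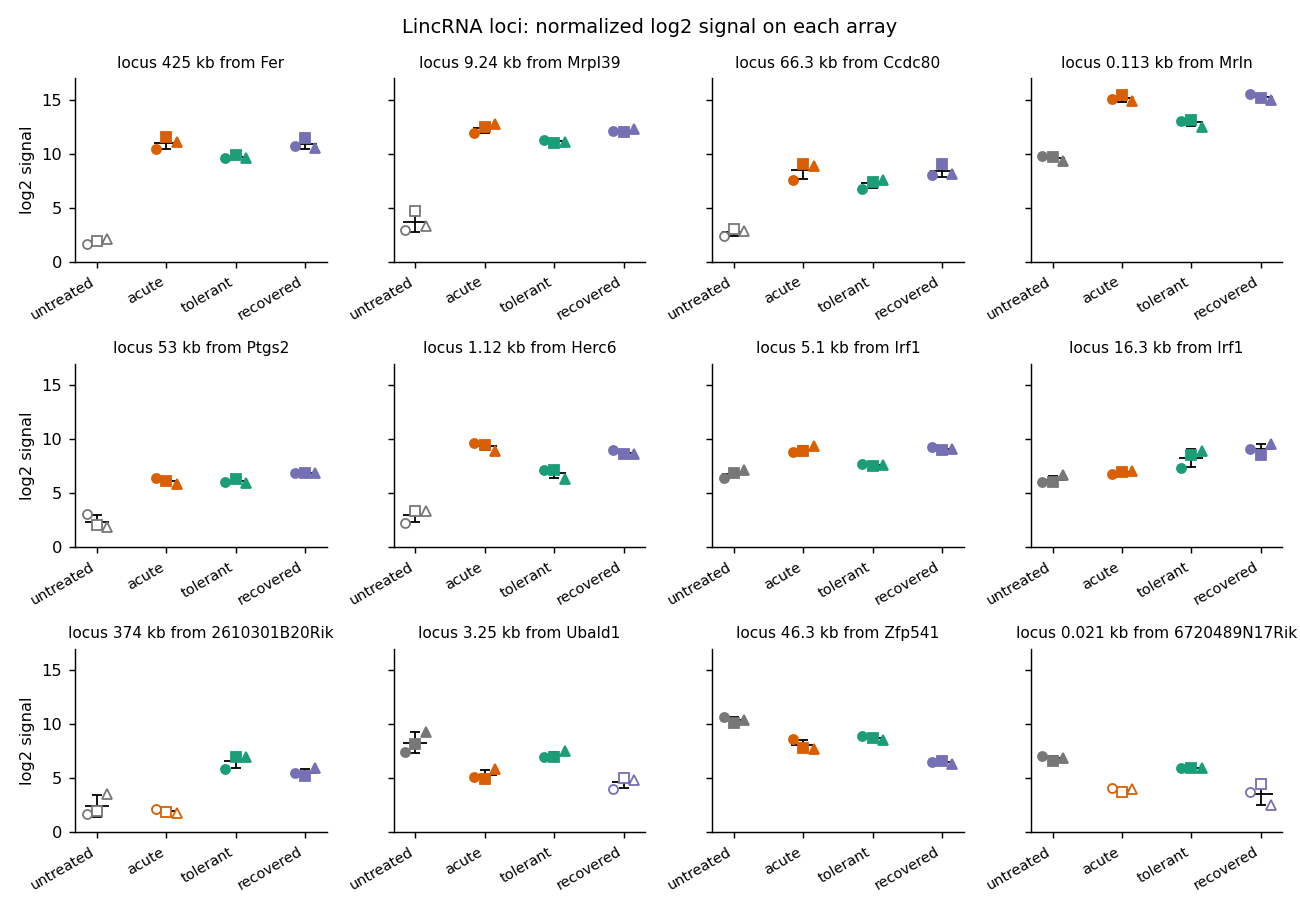
Log2 signal (y axis, array scaled) of 12 loci on each of the 12 arrays, by group on the x axis. Circles, squares and triangles are experiments 1, 2 and 3, bars are the mean ± SD of 3 arrays, and open symbols mark a group in which the probe was not above background on all 3 arrays. The loci by Fer, Mrpl39, Ccdc80, Mrln, Ptgs2 and Herc6 are high in all 3 LPS groups. That by 2610301B20Rik is high in tolerant and recovered cells alone, and that by 6720489N17Rik is lowest in acute and recovered cells.

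Counted over all loci, the acute response comprised 482 calls, 325 higher and 157 lower. That is 17.5% of the 2752 loci, beside 29.3% of all features tested and 34.9% of coding genes. For higher and lower calls the shares of all features were 14.3% and 15.0%. Of the called loci 67.4% were higher, against 45.3% of the called coding genes. Changes ran from -3.13 to 9.15 with a median of 0.13 (0.02 over all features). Of the 2752 loci 316 were called and changed at least 2-fold, beside 3578 of the 20469 features. An unadjusted p under 0.05 was found for 702 loci, beside 7804 features. With the replicate number as a block 811 loci were called (29.5% of the loci, beside 43.5% of all features). The median of the loci was 0.01 without untreated array 1, 0.04 without acute array 3, 0.23 without untreated array 3 and 0.26 without acute array 1, and 0.07 with the authors' values. The sign held within each of 3 slides for 482 of the 482 called loci. They were called on these same arrays, so this is no separate support.

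Loci by Herc6, an interferon-induced gene, rose in acute cells. Locus chr6:57560819-57569928_F, 1.12 kb downstream of a Herc6 probe on the same strand, read 2.25, 3.38 and 3.34 untreated and 9.65, 9.46 and 8.9 in acute cells. Its tolerant arrays read 7.16, 7.12 and 6.29, its recovered arrays 9.02, 8.6 and 8.61, so that the 4 groups fell into untreated, tolerant and, at the top, acute and recovered arrays that overlapped. The probe was not above background in untreated cells, although another probe of the locus was, and it rose at least 44.5-fold in acute, 7.97-fold in tolerant and 29.5-fold in recovered cells (adjusted p = 1.36e-07, 1.57e-05 and 2.71e-07). Herc6 itself, a ligase that attaches ISG15 to proteins, changed by 5.60, 3.70 and 5.28 (SE 0.22). A second locus 0.283 kb downstream of another Herc6 probe, chr6:57583950-57624216_F, rose by 3.32, 2.90 and 3.45 (SE 0.19). The probe of the first locus lies between these Herc6 probes, and both loci are on the strand of Herc6. Signal from Herc6 itself, from a longer Herc6 transcript and from a separate RNA cannot be told apart here.

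The named falls in acute cells were smaller than the largest rises, and for some of them the nearest coding gene fell too. The probe midpoint of locus chr13:62703974-62725544_R lies 21 bp from that of a probe of 6720489N17Rik on the same strand. The locus read 7.1, 6.61 and 6.83 in untreated but 4.06, 3.72 and 4.02 in acute cells. It was below background on all acute arrays, so that it fell at least 6.40-fold (adjusted p = 0.00014), and 6720489N17Rik fell at least 4.72-fold. These probes overlap, so both falls may come from the same bases. Locus chr11:95627874-95640824_F read 11.68, 11.4 and 11.58 untreated and 9.94, 9.52 and 9.62 in acute cells. Its probe midpoint lies 5 bp downstream of that of a probe of the zinc finger gene Zfp652. Its changes of -1.86, -1.75 and -2.14 (SE 0.16) in acute, tolerant and recovered cells stood beside -1.75, -1.68 and -2.23 (SE 0.15) for Zfp652. Here too the probes overlap, so both sets of changes may come from the same bases. Locus chr7:16633756-16634410_F, 46.3 kb upstream of Zfp541, read 10.7, 10.12 and 10.35 untreated and 8.61, 7.76 and 7.73 in acute cells. It fell by 2.35 in acute, 1.66 in tolerant and 3.92 in recovered cells (SE 0.24; adjusted p = 1.94e-05, 0.000532 and 3.24e-07). Locus chr12:16447157-16447657_F, above background on 1 of 3 acute arrays, fell in acute cells by 2.86 ± 0.56 (adjusted p = 0.0025), and Lpin1, a phosphatidate phosphatase 95 kb away on the other strand, fell by 2.67 ± 0.22.

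A pair of overlapping loci on opposite strands moved in opposite directions. Locus chr16:4867322-4874772_F read 9.01, 9.1 and 8.82 untreated, 13.51, 13.8 and 13.41 in acute, 11.83, 11.65 and 11.32 in tolerant and 13.85, 13.5 and 13.48 in recovered cells. Locus chr16:4871449-4874336_R read 7.42, 8.16 and 9.32 untreated, 5.15, 4.91 and 5.85 in acute, 6.96, 7.01 and 7.49 in tolerant and 4.02, 5.02 and 4.81 in recovered cells. The forward locus was highest and the reverse locus lowest in acute and recovered cells, without overlap with untreated arrays. The forward locus rose by 4.59, 2.63 and 4.63 (SE 0.18; adjusted p = 1.54e-08, 2.49e-06 and 1.3e-08). The reverse locus fell by 2.99 ± 0.44 in acute and by 3.68 ± 0.44 in recovered cells, and its change in tolerant cells was -1.15 ± 0.44 (adjusted p = 0.0972, and 0.0134 with the replicate block). Ubald1, 3.25 kb away on the strand of the reverse locus, fell by 1.59 ± 0.20 in acute and by 1.54 ± 0.20 in recovered cells.

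Both strands were tested in 511 regions. In acute cells both strands were called in the same direction in 18, in opposite directions in 4, and 1 strand alone was called in 125. The 4 opposite regions were named after their values were seen. At chr7:111526943-111545093 the reverse strand rose by 3.00 ± 0.17 and the forward strand fell by 0.79 ± 0.20, where the forward call was lost without untreated array 1 (adjusted p = 0.0503) and the mean of its probes changed by 0.39. At chr13:74712775-74728450 the forward strand rose by 0.64 ± 0.15 and the reverse fell by 2.91 ± 0.30. At chr6:86776350-86799379 the forward strand rose by 1.08 ± 0.24 and the reverse fell by 0.88 ± 0.16, and at chr13:62580825-62596425 the values were 1.05 ± 0.19 and -1.27 ± 0.43. In recovered against untreated cells the counts were 32 in the same and 13 in opposite directions, and in tolerant cells 10 and 4. Probes of 1 locus did not always move together either. Of 1348 loci with several kept probes, 456 had a probe called in acute cells, with all kept probes called the same way in 143, some called 1 way in 306 and probes called both ways in 7. In acute cells 17.5% of the loci and 29.3% of all features were called. The counts by strand and by probe were made for loci only, so whether loci differ in this from other features was not tested.

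**Figure D2:**
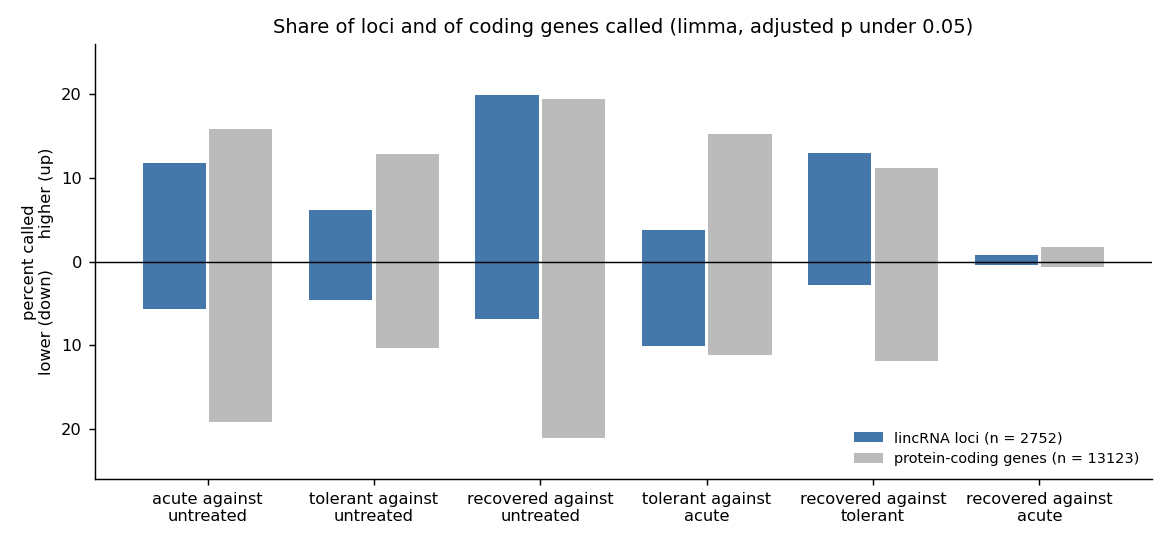
Share of features called higher and lower (percent, y axis) among the 2752 loci and the 13123 coding genes in each of the 6 comparisons (x axis). Loci have a smaller share called than coding genes in all 6, from 1.24% against 2.34% in recovered against acute cells to 26.7% against 40.5% in recovered against untreated cells.

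In tolerant cells, after the second dose with a short rest, the loci near Fer, Mrpl39, Mrln and Herc6 were again above untreated cells, and other loci rose that had not passed the test in acute cells. One of these was chr4:10407110-10724958_R, far from any coding gene (374 kb from 2610301B20Rik). It read 1.69, 1.94 and 3.58 in untreated and 2.18, 1.9 and 1.81 in acute cells, none above background. Tolerant arrays read 5.85, 6.94 and 6.97 and recovered arrays 5.48, 5.18 and 5.92. The 6 arrays of twice-treated cells were above all 6 others, a rise from untreated cells of at least 6.53-fold in tolerant (adjusted p = 7.98e-05) and at least 3.13-fold in recovered cells (0.00028).

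Other loci rose in both twice-treated groups. Locus chr6:136440100-136450050_F read 4.39, 4.85 and 5.02 untreated, 5.59, 5.87 and 6.27 in acute, 6.65, 8.25 and 8.83 in tolerant and 9.06, 8.39 and 9.5 in recovered cells. The tolerant arrays spread widely and overlapped the recovered ones, and the difference between them did not pass the test (1.07 ± 0.48, adjusted p = 0.135, and 0.0375 with the replicate block). Its changes were 1.16 in acute (adjusted p = 0.098, and 0.0264 with the replicate block), 3.16 in tolerant (0.000802) and 4.23 in recovered cells (4.36e-05), each with an SE of 0.48. Locus chr4:131905739-131910814_R, 4.10 kb downstream of the actin regulator Phactr4, changed by 1.26 (adjusted p = 0.0707, and 0.0112 with the block), 2.74 (0.00187) and 3.74 (9.85e-05; SE 0.48), and recovered and tolerant cells differed by 1.00 ± 0.48 (0.154, and 0.0327 with the block). Phactr4 did not pass the test, with 0.37, -0.05 and 0.23 (SE 0.16). Locus chrX:120300373-120302404_F was not above background on any untreated or acute array and read 3.82, 6.05 and 5.98 in tolerant and 6.63, 6.11 and 6.64 in recovered cells, where 2 of 3 tolerant arrays were above background. It was at least 2.68-fold above untreated cells in tolerant (adjusted p = 0.00244) and at least 6.05-fold in recovered cells (0.000119), and in recovered cells at least 5.11-fold above acute cells (0.013). In each of these 3 loci the lowest tolerant array was that of experiment 1.

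A single locus was called against untreated cells in all 3 LPS groups but in both directions. Locus chr18:75518299-75524782_R, 37.1 kb from Smad7 on the other strand, read 5.96, 5.92 and 5.61 untreated, 4.05, 3.78 and 3.46 in acute, 6.81, 6.73 and 6.97 in tolerant and 4.92, 4.85 and 4.15 in recovered cells. Tolerant arrays lay above all others, and acute arrays below them all. It fell at least 3.31-fold in acute cells (adjusted p = 3.62e-05), rose by 1.00 ± 0.23 in tolerant cells (0.00868) and fell by 1.19 ± 0.23 in recovered cells (0.00166). With another background correction (normexp) the recovered change was -0.23 (adjusted p = 0.216). Smad7, an inhibitor of TGF-beta signalling, fell at least 1.15-fold in acute cells (adjusted p = 0.00231), rose by 1.94 ± 0.40 in tolerant cells and changed by 0.04 ± 0.40 in recovered cells (adjusted p = 0.944).

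Between tolerant and untreated cells 294 loci were called, 169 higher and 125 lower. That is 10.7% of the loci, beside 19.9% of all features and 23.2% of coding genes. The shares of all features called higher and lower were 11.3% and 8.63%. With the replicate block 636 loci were called (23.1% of the loci, beside 37.5% of all features), 290 higher and 346 lower, so that the share higher went from 57.5% to 45.6%. It was 44.4% with the slide as a block. The median change was -0.05 (-0.02 over all features) and took either sign with 1 array left out, from -0.18 without untreated array 1 to 0.06 without untreated array 3. Without tolerant array 1 it was 0.03 and without tolerant array 3 -0.10. Of the called loci 166 changed at least 2-fold, beside 2257 of the 20469 features. An unadjusted p under 0.05 was found for 512 of the 2752 loci, beside 6415 features.

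Recovered cells had more loci called against untreated cells than the other LPS groups, and most were higher. There were 736 called loci, 548 higher and 188 lower, which is 26.7% of the loci beside 35.4% of all features and 40.5% of coding genes. All features were called higher in 18.5% and lower in 16.9%. The share higher among called loci was 74.5%, against 48.0% among called coding genes, and 87.4% with the normexp background. With the replicate block 1242 loci were called (45.1% of the loci, beside 52.6% of all features). At least 2-fold changes were found for 419 called loci of the 2752, beside 4170 of the 20469 features. The median change was 0.29 (0.06 over all features). That median was 0.16 without untreated array 1, 0.41 without untreated array 3 and 0.20 with the slide as a block. On the 2 slides that held both groups the sign held on each for 734 of the 736, again loci chosen on the same arrays. Quantile normalization and the authors' own values shifted the median of all features by over 0.1, to -0.06 and -0.07, with the median of the loci at 0.21 and 0.16.

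The median change of the loci in recovered cells was above 0 in each range of signal. Loci were split into 3 ranges of mean log2 signal at 5.81 and 7.69, and coding genes were put into the same ranges. In the dim, middle and bright range the median change of loci from untreated to recovered cells was 0.27 (917 loci), 0.32 (917) and 0.28 (918). Coding genes in the same ranges had 0.18 (1721 genes), -0.03 (2064) and -0.03 (9338). From tolerant to recovered cells the loci had 0.33, 0.38 and 0.39 and the coding genes 0.26, 0.06 and -0.08. Without untreated array 1 the medians against untreated cells were 0.14, 0.18 and 0.16 for the loci and 0.10, -0.09 and 0.02 for the coding genes. The loci were thus nearest to the coding genes in the dim range and above them in the others, as medians with no test.

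**Figure D3:**
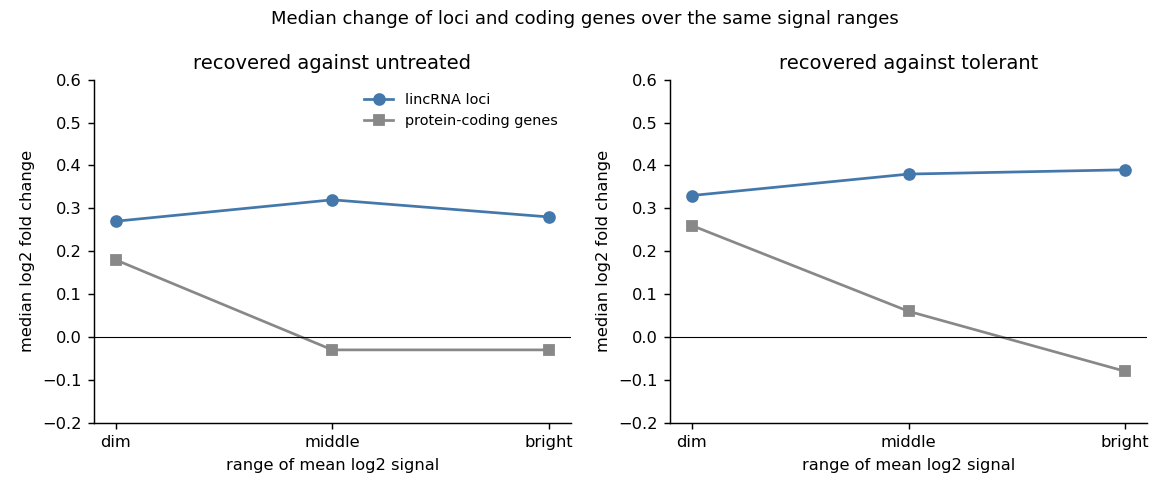
Median log2 change (y axis) in the dim, middle and bright range of mean signal (x axis) for loci and coding genes, recovered against untreated and recovered against tolerant cells. Loci lie between 0.27 and 0.39 in each range and comparison, while coding genes go from 0.18 and 0.26 in the dim range to -0.03 and -0.08 in the bright range.

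Set against acute cells, tolerant cells had mostly lower locus signals. Among loci called in acute cells the 5 deepest drops were those of the Herc6 locus (-2.48 ± 0.34, adjusted p = 0.000555), chr1:161969026-162001640_F (-2.45 ± 0.66, 0.0216), chr3:50934868-50939918_R (-2.43 ± 0.53, 0.00727), chr6:28161665-28189840_R (at least 1.66-fold, 0.00543) and chr10:18036490-18059965_R (-2.24 ± 0.28, 0.000339). The call at chr1:161969026-162001640_F was lost without acute array 2 (adjusted p = 0.0561) or 3 (0.0538) or tolerant array 1 (0.0589) or 2 (0.0867), and that at chr6:28161665-28189840_R with normexp (0.0598). The Mrln locus (-2.22 ± 0.24) and chr1:87348082-87409907_F (-2.16 ± 0.15) also fell. Locus chr10:18036490-18059965_R read 7.43, 7.29 and 7.25 untreated, 9.53, 9.04 and 8.73 in acute, 7.18, 6.58 and 6.82 in tolerant and 9.19, 8.84 and 8.1 in recovered cells. Its tolerant arrays were below every other array. Against untreated cells its change was 1.77 ± 0.28 in acute, -0.46 ± 0.28 in tolerant (adjusted p = 0.306) and 1.38 ± 0.28 in recovered cells. Locus chr1:87348082-87409907_F read 13.91, 13.68 and 13.57 in acute and 11.61, 11.44 and 11.62 in tolerant cells, against 10.05, 10.03 and 9.83 untreated. The Ptgs2 locus described below was not called between tolerant and acute cells (-0.03 ± 0.26, adjusted p = 0.951).

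Locus chr4:124127144-124334840_R read 6.44, 6.97 and 7.71 untreated, 7.71, 7.63 and 9.27 in acute, 4.43, 4.84 and 5.9 in tolerant and 7.1, 6.44 and 7.88 in recovered cells. Tolerant arrays were below all others, by 3.15 ± 0.54 against acute cells (adjusted p = 0.00209). It fell by 1.99 ± 0.54 against untreated cells (adjusted p = 0.0245), which normexp (0.0513), no filter on dim probes (0.0522) or leaving out untreated array 2 or 3 or tolerant array 1 or 2 (0.0636, 0.0846, 0.0956 and 0.0813) took past the threshold. Pou3f1, a POU-domain transcription factor 137 kb away on the other strand, rose by 4.49 ± 0.16 in acute and by 1.19 ± 0.16 in tolerant cells.

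Some loci that fell in acute cells were higher in tolerant than in acute cells. Locus chr13:62703974-62725544_R read 5.92, 5.96 and 5.94 in tolerant cells, at least 3.41-fold above its acute level (adjusted p = 0.00349) and below all untreated arrays. Locus chr13:74712775-74728450_R, 95.6 kb from Zfp825, read 6.94, 7.0 and 7.0 untreated, 4.23, 4.73 and 3.25 in acute, 6.26, 6.44 and 6.3 in tolerant and 4.34, 4.52 and 4.07 in recovered cells. Its tolerant arrays stood between the untreated ones and the low acute and recovered ones, with a difference of 2.26 ± 0.30 from acute cells (adjusted p = 0.000416). Locus chr13:74568375-74601000_R, 47.8 kb from the same gene, differed by 1.66 ± 0.17.

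Between tolerant and acute cells 384 loci were called, 105 higher and the rest lower, 14% of the loci beside 22.7% of all features and 26.2% of coding genes. All features were called higher in 12% and lower in 10.6%. Of called loci 27.3% were higher, against 57.8% of called coding genes. The replicate block gave 900 (32.7% of the loci, beside 44.5% of all features). The count was 220 without acute array 2 and 227 without tolerant array 2. The median change was -0.21 (-0.05 over all features). It was -0.09 without acute array 3, -0.12 without tolerant array 1 and -0.34 without acute array 1.

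In recovered against tolerant cells the direction was the reverse, with 432 loci called, 357 higher and 75 lower, 15.7% of the loci beside 20.6% of all features and 23.1% of coding genes. All features were called higher in 11.0% and lower in 9.59%. The replicate block gave 1247, which is 45.3% of the loci beside 45.1% of all features, so that with it loci were called about as often as all features. The count was 225 without tolerant array 1, 274 without tolerant array 2, 221 without recovered array 1 and 243 without recovered array 3. The median change was 0.37 (0.09 over all features). These comparisons share the tolerant arrays with the one before, so the counts are given side by side only. The 5 largest rises were chr3:50934868-50939918_R (2.67 ± 0.53), chr7:13533925-13544525_F (2.60 ± 0.31), chr10:24269165-24276690_F (2.47 ± 0.27), chr2:157239202-157239982_F (at least 2.92-fold) and the Mrln locus (2.32 ± 0.24, adjusted p = 0.000173). With the authors' own values chr10:24269165-24276690_F and the Mrln locus had an adjusted p of 0.191 and 0.0792. Locus chr10:24269165-24276690_F read 7.21, 7.51 and 7.48 untreated, 10.57, 11.27 and 11.47 in acute, 8.48, 9.1 and 9.31 in tolerant and 11.52, 11.1 and 11.69 in recovered cells. Acute and recovered arrays overlapped at the top, with tolerant arrays apart from both them and the untreated ones. Ccn2, a matricellular growth factor 48.7 kb away on the same strand, was above background in acute and recovered cells alone, at least 3.43-fold and at least 3.20-fold above untreated cells.

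Recovered and acute cells had the fewest calls of the 6 comparisons. There were 34 called loci, 22 higher and 12 lower, 1.24% of the loci beside 2.04% of all features and 2.34% of coding genes. All features were called higher in 1.46% and lower in 0.581%. The replicate block gave 204 (7.41% of the loci, beside 10.7% of all features). Of the 34, 27 changed at least 2-fold, beside 309 of the 20469 features. An unadjusted p under 0.05 was found for 293 of the 2752 loci, beside 2882 features. The count of called loci was 20 without untreated array 2 or tolerant array 2, 4 without acute array 1, 3 without acute array 2, 1 without recovered array 1, and 5 without recovered array 2 or 3. It was 7 with no filter on dim probes. With the slide as a block 147 loci were called, 5.34% of the loci beside 7.82% of all features. That block gave 909 loci in acute against untreated cells (33.0%, beside 45.5% of all features), 714 in tolerant (25.9%, beside 39.4%) and 1104 in recovered against untreated cells (40.1%, beside 49.6%). It gave 1015 in tolerant against acute (36.9%, beside 47.0%) and 1007 in recovered against tolerant cells (36.6%, beside 40.2%). The share of higher calls among the 34 was 64.7%, and 78.8% with normexp, 51.0% with the authors' values. The largest rises included loci high in both twice-treated groups, chrX:120300373-120302404_F (at least 5.11-fold), chr4:10407110-10724958_R (at least 2.67-fold, adjusted p = 0.0101) and chr6:136440100-136450050_F (3.07 ± 0.48, adjusted p = 0.016). The authors' values gave adjusted p of 0.0625 and 0.147 for the last 2. The call at chr6:136440100-136450050_F was lost without acute array 1 (adjusted p = 0.0745) or 2 (0.077) or recovered array 1 (0.0643) or 3 (0.0588), and that at chrX:120300373-120302404_F without acute array 1 (0.0568) or recovered array 1 (0.0535).

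The largest falls included chr5:31883451-31884082_F (-1.90 ± 0.43, adjusted p = 0.0498), chr7:16633756-16634410_F (-1.56 ± 0.24, 0.014), chr4:149445201-149445902_F (-1.51 ± 0.25, 0.0208) and chr13:48620882-48643532_R (-1.39 ± 0.21, 0.014). The first of these calls was lost in turn without each of the arrays other than untreated array 3 and acute array 3. The second was lost without acute array 2 (adjusted p = 0.053) or recovered array 1 (0.0535) or 2 (0.0531). The third was lost without acute array 1 (0.0709) or 2 (0.0788) or recovered array 1 (0.071) or 3 (0.0699), and the fourth without acute array 2 (0.0742) or recovered array 1 (0.0609). Locus chr7:16633756-16634410_F read 6.51, 6.56 and 6.35 in recovered cells, below all other arrays of the study. Locus chr4:149445201-149445902_F read 8.92, 9.31 and 8.7 in recovered cells and between 9.98 and 11.19 elsewhere.

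**Figure D4:**
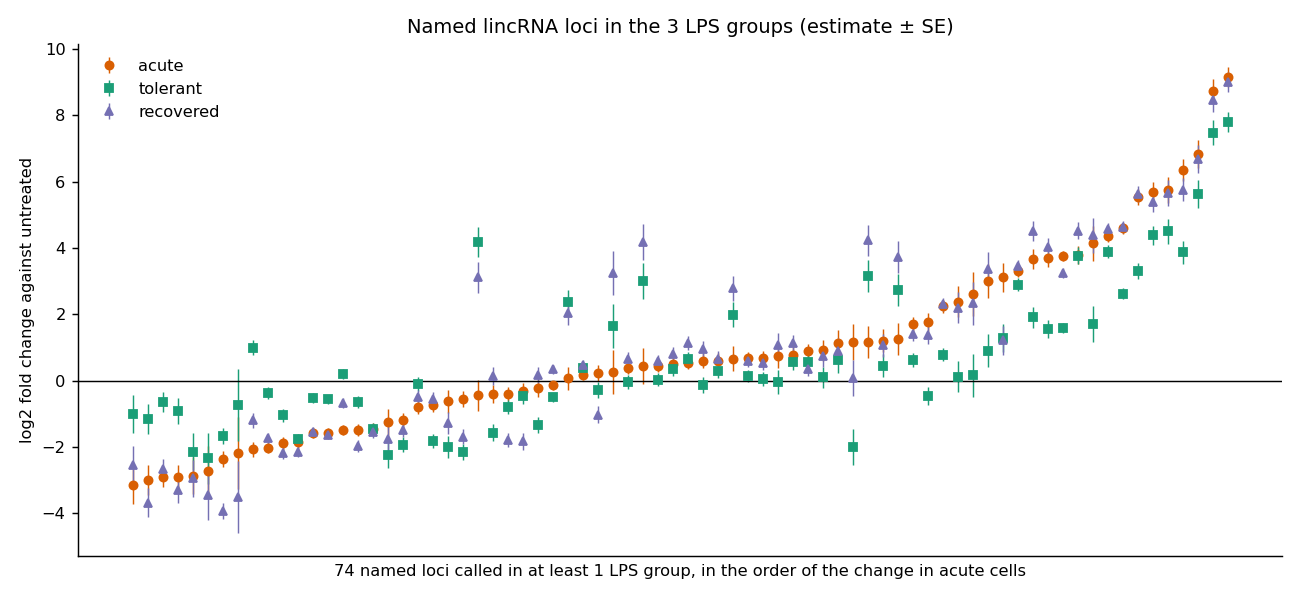
Log2 change from untreated cells (y axis, ± SE) in acute, tolerant and recovered cells for the 74 named loci called in at least 1 LPS group (x axis, in the order of the acute change). At the left and right ends the tolerant points lie mostly nearer to 0 than the acute and recovered ones, and in the middle a few loci are apart in tolerant and recovered cells alone. The loci were named partly for their acute changes and for differences between the LPS groups on these same arrays. That choice favours this picture, so it is no result about loci in general. Changes of probes that were not above background in a group rest on dim signal.

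Loci were next set against their nearest protein-coding gene. A position on mm9 was given for 2733 of the 2752 brightest probes, at a median of 28922 bp from the nearest coding-gene probe. Of these, 2262 had a coding-gene probe within 100 kb. The gene was itself tested in 1799 cases (996 on the same strand, 803 on the other). These pairs hold 929 different genes, so many loci share a neighbour. Between acute and untreated cells both were called in the same direction in 142 pairs (87 higher, 55 lower) and in opposite directions in 33. The locus alone was called in 153 and the neighbour alone in 545. The share of pairs called in the same direction was 7.89%, beside 10.6% of 8965 pairs of a coding gene and its nearest coding gene. In recovered cells it was 9.45% beside 12.5%, with 170 pairs in the same (114 higher, 56 lower) and 62 in opposite directions. In tolerant cells 59 pairs went the same way (42 higher, 17 lower; 3.28% beside 4.84%) and 13 opposite ways.

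How closely a locus followed its neighbour varied with distance and strand. Over 93 pairs on the same strand within 1 kb, Pearson's r of the acute changes was 0.78 (Spearman's rho 0.68), with 26 pairs called the same way, 7 higher and 19 lower, and 1 opposite. From 1 to 10 kb r was 0.50 over 261 pairs and from 10 to 100 kb 0.31 over 642 pairs. On the opposite strand r was 0.30 over 36 pairs within 1 kb, 0.27 over 172 and 0.18 over 595 pairs in the wider classes. Coding genes and their coding neighbours on the same strand had 0.74 over 40 pairs within 1 kb, 0.32 over 923 and 0.39 over 2878. These correlations run over pairs of 1 experiment on the same arrays with shared neighbours, and carry no p. Distances run between probe midpoints, so the class within 1 kb includes pairs of overlapping probes, as at 6720489N17Rik. On the same strand at short range, shared probe sequence, the gene's own transcript, read-through of it and separate transcripts cannot be told apart.

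**Figure D5:**
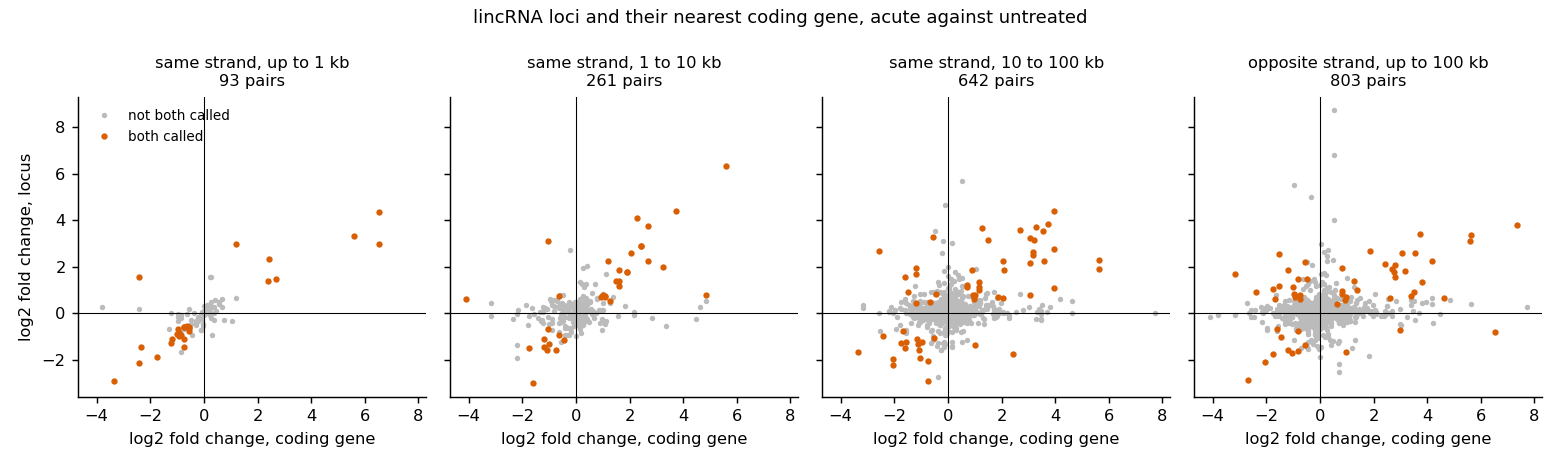
Log2 change of a locus between acute and untreated cells (y axis) against that of its nearest coding gene (x axis), for pairs on the same strand within 1 kb (93), at 1 to 10 kb (261) and at 10 to 100 kb (642), and on the opposite strand (803). Coloured points are pairs with both members called. They lie near the diagonal within 1 kb, where some probes of locus and gene overlap, and scatter in the wider classes and on the other strand.

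The difference between the change of a locus and that of its neighbour was tested directly over all 10764 pairs. In acute cells it was called for 544 of the 1799 loci (302 with the locus higher, 242 lower), which is 30.2% beside 39.4% of all pairs, and for 842 with the replicate block. In tolerant cells it was called for 338 (145 and 193; 18.8% beside 28.0%) and with the block for 627. In recovered cells the numbers were 656 (396 and 260; 36.5% beside 44.1%) and 958. Tolerant against acute cells gave 353 (126 and 227; 19.6% beside 27.7%), with the block 679, and 234 without tolerant array 2. Recovered against tolerant cells gave 320 (237 and 83; 17.8% beside 23.7%) and with the block 692. That count was 192 without tolerant array 1, 209 without tolerant array 2, 189 without recovered array 1 and 213 without recovered array 3. Recovered against acute cells gave 28 (19 and 9; 1.56% beside 2.95%) and with the block 217. It was 15 without untreated array 2, 3 without recovered array 1, 6 without recovered array 2 or 3, and limma called 0 without acute array 1 (163 at an unadjusted p under 0.05) or acute array 2 (206).

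Coding genes of 3 lists were taken as neighbours to see whether loci next to known LPS-response genes moved with them. Of 63 inflammatory genes 61 were tested and 54 were higher in acute cells, and 12 loci lay nearest to 8 of them. Of these 12 loci 2 were higher in acute, 1 in tolerant and 3 in recovered cells, beside 14.3%, 11.3% and 18.5% of all features, with a median change of 0.13, -0.13 and 0.23. By limma 0 were lower (1 in each comparison at an unadjusted p under 0.05). Of their 8 neighbours 6, 5 and 4 were higher. Ptgs2, the inducible cyclooxygenase of prostaglandin synthesis, had a locus 53.0 kb downstream on the other strand. This locus, chr1:152001112-152012796_R, read 3.02, 2.03 and 1.9 untreated, none above background, then 6.36, 6.12 and 5.84 in acute, 6.02, 6.28 and 5.95 in tolerant and 6.83, 6.84 and 6.83 in recovered cells. All LPS arrays were above the untreated ones, acute and tolerant arrays overlapped, and the recovered arrays were the highest. It rose at least 4.75-fold, 4.66-fold and 7.85-fold (adjusted p = 9.7e-07, 2.61e-06 and 2.34e-07), beside 7.36, 6.47 and 8.35 (log2, SE 0.47) for Ptgs2.

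Other loci near inflammatory genes had smaller changes or did not pass the test. Socs3, a feedback inhibitor of cytokine receptors, rose by 4.62, 4.99 and 5.35 (SE 0.13) in acute, tolerant and recovered cells. Of its 4 loci, chr11:117835849-117842574_F, 8.58 kb away on the other strand, rose by 0.68 in acute (adjusted p = 0.013) and 0.61 in recovered cells (0.0188). The acute call was lost without untreated array 1 (adjusted p = 0.0518) or acute array 2 (0.0557). The recovered call was lost without untreated array 1 (0.0734) or 2 (0.058) or recovered array 1 (0.0611) or 2 (0.0552). Cd69, an early activation marker outside the list, rose by 7.71 ± 0.41 in acute cells, and both loci near it did not pass the test there. They were named for their large difference from Cd69, so that they did not follow it was set by the choice. The loci near Nfkbia, the NF-kappaB inhibitor, read 6.33, 6.41 and 6.24 (chr12:56564855-56565310_R) and 4.35, 4.22 and 4.49 (chr12:56607657-56613582_F) untreated, against 6.09, 6.73 and 6.38 and 4.3, 4.06 and 4.8 in acute cells. The arrays of both groups overlapped for each, while Nfkbia rose by 2.55 ± 0.14.

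Of 48 interferon-response genes 47 were higher in acute cells, and 7 loci lay nearest to Irf1 or Isg15. Of these 2 were higher in acute, 3 in tolerant and 6 in recovered cells, beside 14.3%, 11.3% and 18.5% of all features. None were lower: 0 in limma at an adjusted or unadjusted p under 0.05. Most of the 7 loci overlap another of them in position, so they are not independent. Irf1, a transcription factor of the interferon response, rose by 4.19, 2.07 and 4.14 (SE 0.14). Locus chr11:53596919-53672731_R, 5.10 kb downstream of Irf1 on the other strand, read 6.42, 6.86 and 7.14 untreated, 8.83, 8.91 and 9.39 in acute, 7.66, 7.51 and 7.62 in tolerant and 9.25, 8.97 and 9.11 in recovered cells. Its tolerant arrays lay above the untreated and below the acute and recovered arrays, which overlapped, and its changes were 2.24, 0.79 and 2.30 (SE 0.20). The tolerant change (adjusted p = 0.0186) did not pass without untreated array 1 (0.0638) or tolerant array 1 (0.0624). Locus chr11:53574182-53574644_R, 16.3 kb upstream of Irf1, had another order, with 6.05, 6.05 and 6.69 untreated, 6.78, 6.99 and 7.02 in acute, 7.3, 8.53 and 8.93 in tolerant and 9.08, 8.53 and 9.55 in recovered cells. All arrays of twice-treated cells were above all acute ones, and the changes were 0.66 (adjusted p = 0.245), 1.99 (0.00363) and 2.79 (0.000179), each with an SE of 0.38. The locus chr11:53592946-53637922_R changed by -0.04 in tolerant cells on its brightest probe and by 1.24 (adjusted p = 0.000383) where its probes were averaged. Isg15, a ubiquitin-like modifier, rose by 4.87, 3.69 and 4.76 (SE 0.20), and its locus chr4:155560050-155570900_R by 0.79 ± 0.24 in acute and 1.14 ± 0.24 in recovered cells. The acute call (adjusted p = 0.0302) was lost with no filter on dim probes (0.0576), on the first scan day alone (0.079), or without untreated array 1 (0.0955) or 2 (0.0702) or acute array 2 (0.0987) or 3 (0.112).

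Of 51 regulators of macrophage state and growth 45 were tested, of which 13 were higher and 14 lower in acute cells, and 32 loci lay nearest to 15 of them. Of these loci 6 were higher in acute, 3 lower in tolerant and 6 higher in recovered cells, beside 14.3%, 8.63% and 18.5% of all features, with medians of 0.16, -0.01 and 0.35. The largest change in acute cells among them was at chr12:81217572-81233910_F, 16.8 kb upstream of Zfp36l1 on the other strand. It read 5.36, 5.56 and 5.88 untreated and 7.3, 7.09 and 7.54 in acute cells, and rose by 1.71 ± 0.21 in acute (adjusted p = 7.97e-05) and by 1.40 ± 0.21 in recovered cells. Zfp36l1, an RNA-binding protein that promotes decay of AU-rich mRNAs, went the other way, by -3.17, -3.25 and -3.41 (SE 0.37). Overlapping loci downstream of Cdkn1b, the cell cycle inhibitor p27, were lower in tolerant cells than in each other group. Locus chr6:134875724-134931975_F read 5.74, 5.27 and 5.73 untreated, 5.06, 5.08 and 5.36 in acute, 4.46, 3.36 and 4.25 in tolerant and 5.59, 5.56 and 6.01 in recovered cells. Its tolerant arrays were the lowest, with 1 of 3 above background, and it fell by 1.56 ± 0.27 against untreated (adjusted p = 0.00181) and by 1.14 ± 0.27 against acute cells (0.011), and recovered cells were 1.70 ± 0.27 above tolerant ones (0.00168). The locus inside it, chr6:134879009-134880130_F, fell by 1.33 ± 0.25 against untreated cells (adjusted p = 0.00291, and 0.0702 with normexp) and lies in the same stretch, so the pair is not independent.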

How the data were processed

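Members, gene lists and tests were chosen with earlier results of these data known. RNA of 12 macrophage cultures was hybridised to 1-colour Agilent mouse arrays with a mm9 design. The deposited intensity is the scanner's processed signal, already background-subtracted by the authors' Feature Extraction 10.7.3.1, per the file headers. The authors' deposited table of log2 values is centred near 5.47 to 5.48 per array, matched its own array in 12 of 12 columns (r at least 0.973) and served as an alternative, since its exact normalization is not given in the sources used here.

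From 55681 non-control probes, outlier spots were left out and signals were taken as log2 after scaling each array to its 75th percentile. Probes had to be well above background on every array of at least 1 group, and the brightest kept probe stood for its locus or gene. Genes were named from array accessions and symbols through RefSeq's mouse table (names and types only). Probe positions are the array design's mm9 coordinates, and 118 locus probes without one were not used for distances. limma 3.58.1 in R 4.3.3 was fitted over 20469 features and 12 arrays (8 residual degrees of freedom), with Benjamini-Hochberg adjustment. The number of arrays limits the precision.

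Named loci were the 5 largest rises and falls of each comparison, the 5 with the smallest p in each direction against untreated cells, those with opposite calls, those near listed genes, the 5 with the largest tolerant-to-acute differences in each direction among acute calls, and the 5 largest differences from a neighbour. Experiment numbers are shared across groups and pair the arrays: over 18 pairs of same-numbered arrays the correlation of deviations from group means was 0.275 to 0.773 (median 0.449), so values with the replicate number as a block are given where they change a call. Slides and scan days were also tried as batches: experiment 3 was on its own slide on a second day. Alternatives were quantile and normexp normalization, other filters, the mean of probes, an intensity trend, pairs within 10 kb, the blocks and each array left out. Scripts were tested on simulated data.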

Additional observations from a re-analysis of the deposited data

How the results depend on the processing

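Counts moved with the block. With the replicate block the loci called were 811, 636, 1242, 900, 1247 and 204 in turn for acute, tolerant and recovered cells (each against untreated), tolerant against acute, recovered against tolerant and recovered against acute cells. The pairs called in the same direction were then 271, 138, 325, 244, 277 and 19, and the called differences from the neighbour 842, 627, 679, 692 and 217 (958 in recovered against untreated cells). With the slide as a block the loci were 909, 714, 1015, 1007 and 147 (without recovered against untreated, within 1.5 times), the pairs 292, 157, 290, 275, 227 and 14, and the differences 872, 661, 728, 641 and 151 (again without recovered against untreated). With the authors' matrix the loci were 498, 643, 764 and 104 in tolerant against untreated and the last 3 comparisons (34.6%, 37.5%, 36.2% and 5.91% of all features were then called), and the pairs 254, 109, 290, 171, 153 and 7. Normexp gave 657 loci in recovered against tolerant cells (25.8% of all features were called), no filter on dim probes gave 7 and the mean of probes 1 pair in recovered against acute cells. Pairs within 10 kb numbered 73, 30, 83, 44 and 36.

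Leaving out 1 array at a time gave 384 to 514, 210 to 311, 541 to 780, 220 to 407, 221 to 500 and 1 to 40 loci, 109 to 143, 41 to 62, 130 to 181, 56 to 100, 44 to 89 and 0 to 1 pairs, and 422 to 538, 251 to 352, 544 to 693, 234 to 369, 189 to 359 and 0 to 36 differences. Pairs in the same direction were 56 in tolerant against acute cells without tolerant array 2. In recovered against tolerant cells they were 50 without tolerant array 1, 47 without tolerant array 2, 44 without recovered array 1 and 46 without recovered array 3. The cause was not tested beyond the fewer arrays.

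For the changes of named loci, 2809 of the values with 1 array left out kept direction and call, 143 lost the call and 24 gained it. Under the other settings 2296 kept both, 64 lost and 105 gained the call, and 3 turned sign. All 3 came from averaging the probes of a locus: chr11:53592946-53637922_R in tolerant cells (1.24), and chr7:111526943-111545093_F in acute (0.39) and recovered cells (0.68). The replicate block is a fixed term, and the values above with it are those of the paired analysis. Differences near the background level of the arrays were not detectable. The settings for the differences from the neighbour and for the medians by signal range were chosen after seeing the data.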
